A study of Rattus norvegicus with 105 samples.

Results

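Complement C1q and macrophage marker genes were followed in rat muscle that carried metal implants. The 10 genes were taken from a named list, each matched by symbol to its probe set on the array: C1qa, C1qb, C1qc, Adgre1, Aif1, Fcer1g, Cd68, Cd163, Siglec1 and Csf1r. All 10 were found, each on 1 probe set, among 22954 probe sets tested. Male Sprague-Dawley rats received 4 pellets, 2 in each gastrocnemius, of a single metal, each a cylinder 1 mm wide and 2 mm long. The metals were cobalt, nickel, copper, aluminum, iron, lead, tungsten, depleted uranium and tantalum, the last being the surgical sham that every comparison uses as its reference. Muscle was taken after 1, 3, 6 or 12 months, with 8 rats assigned to each metal and month. The rats were about 30 days old on arrival and were acclimated for at least 2 weeks, so the cohorts differ in age as well as in time with the implant. Each array was hybridised with 250 ng of RNA pooled from 2 to 3 rats, with 3 arrays for each of 35 groups. Nickel at 12 months was not analysed here. No unimplanted muscle was used here, so the tantalum values include whatever surgery and an inert object bring about. A p-value measures the spread between pools, not between single rats.

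C1q is the recognition unit that opens the classical complement pathway. Its A, B and C chains are encoded by C1qa, C1qb and C1qc, assemble into one protein, and are made largely by macrophages rather than by the liver. In muscle, macrophages clear debris after injury and gather around foreign material, and different genes mark different states of these cells. In bulk RNA, more macrophages and more transcript per macrophage cannot be told apart.

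Levels are log2 intensities of the deposited table, given as the mean ± SD of 3 arrays, and a difference is a log2 value with its model standard error (SE), so 1 unit is a doubling. Adjusted p-values are two-sided, from limma fitted to the arrays of all 35 groups and adjusted by Benjamini-Hochberg over the 22954 probe sets of a comparison, with 0.05 as the threshold. Levels are never set against each other between genes, because probes differ in brightness. The muscle fibre list held 8 genes of contractile protein and muscle metabolism. Over the tantalum, cobalt and nickel arrays of 3 months its mean level per array was 13.37 to 13.49, near the highest deposited value of 14.13. With either metal 0 of 8 passed, and whether probes this bright can still show a change was not tested. Array medians ran from 6.36 to 6.54, and no array had a mean correlation below 0.970 with the rest. Every array was above the median of the control probe sets for 9 of the genes. Adgre1 was the exception, above it in 97 arrays and more than 1 unit above it in 18.

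The promoters of C1qb and C1qa, and of the lineage receptor Csf1r and the lysosomal Cd68, are shown. These members passed with cobalt at 3 months, and of them Cd68 did not pass with nickel. RefSeq (build GRCr8) gave a promoter for 6 of the 10 genes, from 250 bases before to 50 after the start site. C1qc, Aif1, Fcer1g and Siglec1 had none, so C1qb and C1qa are the only C1q chains with a window. In these windows 2 motifs were searched on both strands, the PU box GAGGAA, which the macrophage factor PU.1 can bind, and the AP-1 motif TGANTCA. The windows of C1qb (chr5:154407778-154408077), C1qa (chr5:154419884-154420183) and Cd68 (chr10:54882392-54882691) read from the minus strand and that of Csf1r (chr18:56834129-56834428) from the plus strand. Capitals mark both motifs, and the matches did not overlap.
C1qb: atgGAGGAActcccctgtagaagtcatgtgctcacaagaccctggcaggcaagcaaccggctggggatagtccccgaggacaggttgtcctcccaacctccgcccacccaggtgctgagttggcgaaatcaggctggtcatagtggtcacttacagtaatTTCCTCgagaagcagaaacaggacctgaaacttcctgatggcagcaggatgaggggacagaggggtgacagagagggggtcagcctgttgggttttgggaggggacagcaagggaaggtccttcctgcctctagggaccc
C1qa: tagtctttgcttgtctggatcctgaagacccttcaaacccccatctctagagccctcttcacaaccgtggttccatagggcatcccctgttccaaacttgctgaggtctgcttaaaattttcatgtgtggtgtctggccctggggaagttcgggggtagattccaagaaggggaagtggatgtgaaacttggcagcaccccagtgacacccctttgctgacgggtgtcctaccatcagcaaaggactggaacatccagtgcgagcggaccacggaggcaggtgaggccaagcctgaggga
Csf1r: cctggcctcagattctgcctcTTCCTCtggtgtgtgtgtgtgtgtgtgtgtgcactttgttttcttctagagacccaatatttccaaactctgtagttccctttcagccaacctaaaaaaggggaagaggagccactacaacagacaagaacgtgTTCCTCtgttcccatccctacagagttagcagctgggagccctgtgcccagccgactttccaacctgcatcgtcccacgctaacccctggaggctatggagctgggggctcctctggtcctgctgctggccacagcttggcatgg
Cd68: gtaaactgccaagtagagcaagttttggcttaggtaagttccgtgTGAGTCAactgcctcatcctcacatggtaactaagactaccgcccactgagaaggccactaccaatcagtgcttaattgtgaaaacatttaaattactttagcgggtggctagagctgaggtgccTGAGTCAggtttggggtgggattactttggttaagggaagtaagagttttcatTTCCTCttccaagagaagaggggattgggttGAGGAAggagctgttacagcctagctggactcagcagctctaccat
The PU box letters occurred in 4 of the 6 windows, with 2 matches each in C1qb, Csf1r and Cd68 and 1 in Adgre1. Across all 33469 RefSeq promoters of this length, 27.6% hold that motif. The AP-1 letters occurred in Cd68 only, with 2 matches, against 7.3% of all promoters. C1qa and Cd163 held neither, which says only that these letters are absent from those windows. In the RefSeq gene order C1qb, C1qc and C1qa are direct neighbours on chromosome 5.

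The genes were higher than tantalum mainly in cobalt and nickel muscle at 3 months. With cobalt, 9 of the 10 rose, by 0.37 (C1qa) to 2.01 (Aif1) on the log2 scale, and with nickel 9 of the 10 rose, by 0.45 (C1qa) to 1.68 (C1qb). Cd163 was the gene that missed the threshold with cobalt, and Cd68 was the one that missed it with nickel. Over all probe sets, 4.87% were called higher with cobalt and 2.82% with nickel at that month. The genes were chosen with earlier results of these data known, so these shares describe the list and are no test of it. The median difference of the 10 genes was 1.29 with cobalt and 0.90 with nickel, against -0.05 and -0.02 over all probe sets. For 9 of the genes the lowest cobalt array was above the highest tantalum array, an arrangement found in 11.1% of all probe sets. For 8 of them the same was true of nickel, against 9.75% of all probe sets. The nickel and cobalt comparisons share their tantalum arrays, so they are not independent of each other.

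**Figure D1:**
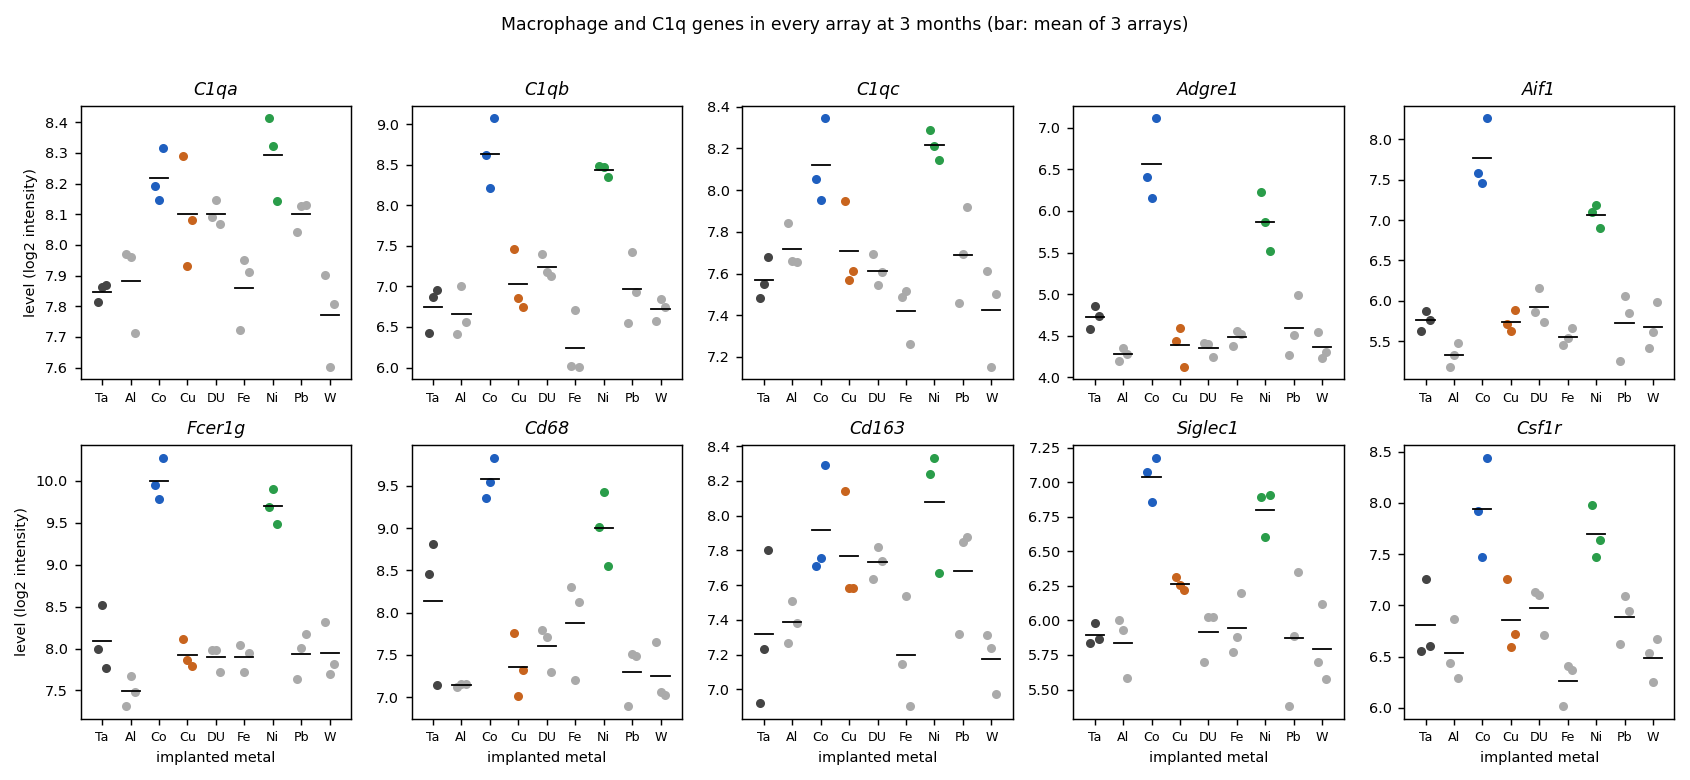
Level (log2 intensity) of each gene in every array at 3 months, by implanted metal; points are arrays of pooled RNA and bars are means of 3. Cobalt (blue) and nickel (green) stand above tantalum (dark grey) in most panels, and the tantalum arrays of Cd68 are spread from 7.14 to 8.81.

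Among the C1q chains, C1qb had the widest range. Its tantalum arrays at 3 months read 6.43, 6.87 and 6.96, its cobalt arrays 8.61, 8.21 and 9.07 and its nickel arrays 8.48, 8.47 and 8.34. Both metals lay at least 1 unit above every tantalum array. The difference was 1.88 ± 0.24 (SE) with cobalt and 1.68 ± 0.24 with nickel, 3.68-fold and 3.20-fold, with limma adjusted p-values of 3.2e-09 and 5.7e-07. C1qa, encoding the A chain, read 7.81, 7.86 and 7.87 with tantalum, 8.19, 8.15 and 8.32 with cobalt and 8.41, 8.32 and 8.14 with nickel. The groups were apart, but by far less than for C1qb. Its differences were 0.37 ± 0.11 and 0.45 ± 0.11 (limma adjusted p = 0.032 and 0.0093). C1qc, the C chain gene, was intermediate, at 7.57 ± 0.10 with tantalum, 8.12 ± 0.20 with cobalt and 8.22 ± 0.07 with nickel (SD, n = 3 each). It differed by 0.55 ± 0.17 and 0.64 ± 0.17 (limma adjusted p = 0.033 and 0.012), and no cobalt or nickel array reached down to a tantalum array. Over the 35 groups the means ran from 7.76 to 8.29 for C1qa, from 7.37 to 8.22 for C1qc and from 6.24 to 8.63 for C1qb. The calls for C1qa and C1qc depended on single arrays and on the settings. The cobalt call of C1qa was lost without cobalt replicate 1 or 3 or any 1 tantalum replicate (adjusted p from 0.067 to 0.21), and that of C1qc when cobalt replicate 1 or 3 was left out, or else replicate 1 or 2 of tantalum (0.059 to 0.30). Their nickel calls were lost without nickel replicate 1 or 2, and that of C1qc also without tantalum replicate 1 (0.051 to 0.11). A second quantile normalization ended the cobalt calls of C1qa and C1qc (limma adjusted p = 0.070 and 0.054). Adjustment over all 31 comparisons ended their cobalt calls (0.21 for each) and their nickel calls (0.060 and 0.076). A fit to the 6 arrays compared ended the calls of C1qa with cobalt and nickel (0.072 and 0.099), and the other metals as reference ended its cobalt call (0.15). How far probe response sets the size of these changes was not tested.

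Aif1 had the largest cobalt difference of the 10 genes, and Adgre1 rose with both metals. Aif1 encodes the calcium-binding protein IBA1, a standard label of macrophages and microglia. Its arrays read 5.63, 5.87 and 5.76 with tantalum, 7.58, 7.46 and 8.26 with cobalt, and 7.10, 7.18 and 6.90 with nickel. The 3 groups followed one another without overlap, cobalt highest. The differences from tantalum were 2.01 ± 0.27 and 1.31 ± 0.27 (limma adjusted p = 1.6e-08 and 8.5e-04). Adgre1 encodes an adhesion receptor that in mice is a classic macrophage antigen. It read 4.59, 4.86 and 4.74 with tantalum, close to the control probe sets, whose median per array ran from 3.85 to 4.35. It reached 6.41, 6.16 and 7.12 with cobalt and 6.22, 5.87 and 5.52 with nickel, so those 6 arrays were clear of the control probe sets. The differences were 1.83 ± 0.28 and 1.14 ± 0.28 (limma adjusted p = 2.6e-07 and 0.0052), and with tantalum so near background their sizes are not exact. The nickel call for Adgre1 was lost without nickel replicate 1 (adjusted p = 0.094), an array whose removal left 4 of the 9 nickel calls.

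Fcer1g encodes the Fc receptor gamma chain, which carries the activation motif (ITAM) for several Fc receptors. Its arrays read 7.99, 8.52 and 7.77 with tantalum, 9.95, 9.78 and 10.27 with cobalt and 9.69, 9.90 and 9.49 with nickel. Both metals lay well above tantalum and overlapped each other. The differences were 1.91 ± 0.24 and 1.60 ± 0.24 (limma adjusted p = 2.1e-09 and 1.8e-06). Csf1r encodes the receptor for colony-stimulating factor 1, on which macrophage survival depends. It read 6.55, 7.26 and 6.61 with tantalum, 7.92, 7.47 and 8.44 with cobalt and 7.98, 7.47 and 7.64 with nickel. The second tantalum array came close to the lowest cobalt and nickel arrays. The differences were 1.14 ± 0.24 and 0.89 ± 0.24 (limma adjusted p = 4.8e-04 and 0.019), and the nickel call was lost without nickel replicate 1 (0.19), tantalum replicate 1 (0.15) or tantalum replicate 3 (0.14). It was also lost with adjustment over all 31 comparisons (0.11), and with only the 6 arrays compared both the nickel and the cobalt call were lost (0.083 and 0.054).

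Cd68, a lysosomal membrane glycoprotein gene, and the scavenger receptor gene Cd163 were read against tantalum arrays that themselves differed. Cd68 read 8.45, 8.81 and 7.14 with tantalum, 9.35, 9.54 and 9.83 with cobalt and 9.01, 9.43 and 8.55 with nickel. All cobalt arrays were higher than every tantalum array, whereas nickel overlapped tantalum. The cobalt difference was 1.44 ± 0.29 (limma adjusted p = 1.3e-04) and the nickel difference was 0.86 ± 0.29, with an adjusted p of 0.081. Without tantalum replicate 2 or nickel replicate 3 the nickel value passed (adjusted p = 0.014 and 0.031), and with only the 6 arrays compared the cobalt call was lost (0.081). With the mean of the other metals of 3 months as the reference, nickel was 1.27 ± 0.22 higher (limma adjusted p = 1.4e-05). Cd163, the receptor that takes up hemoglobin bound to haptoglobin and marks resident macrophages, read 6.92, 7.23 and 7.80 with tantalum. It read 7.71, 7.75 and 8.29 with cobalt and 8.24, 8.33 and 7.67 with nickel, and both overlapped tantalum. The differences were 0.60 ± 0.21 and 0.76 ± 0.21 (limma adjusted p = 0.077 and 0.018). The third tantalum array decided the cobalt value, which passed without it (adjusted p = 0.011), and the nickel call was lost when replicate 1 or 2 of either nickel or tantalum was left out, with adjusted p-values from 0.079 to 0.24. That call was also lost with arrays of the same month only (0.056), with the 6 arrays compared (0.21) and with adjustment over all 31 comparisons (0.10). Siglec1, the sialic acid receptor CD169, is induced by interferons on macrophages. It read 5.84, 5.98 and 5.86 with tantalum, 7.07, 6.86 and 7.18 with cobalt and 6.89, 6.60 and 6.91 with nickel. The tantalum arrays were close together and far below both metals. The differences were 1.14 ± 0.20 and 0.91 ± 0.20 (limma adjusted p = 9.7e-06 and 0.0017).

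**Figure D2:**
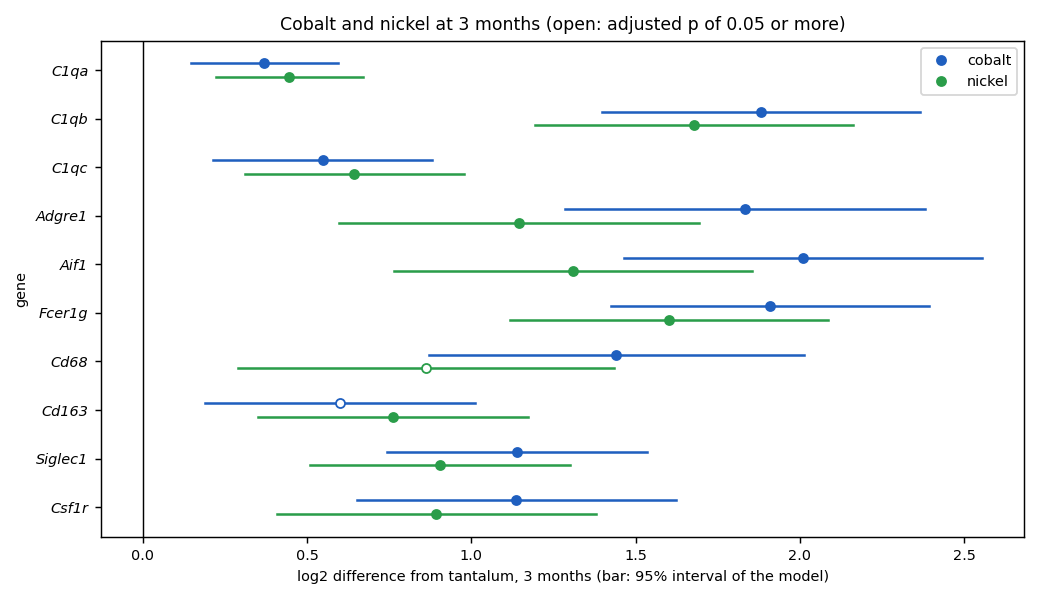
Difference from tantalum at 3 months for each gene (log2, points) with the 95% interval of the model (bars), for cobalt in blue and nickel in green; filled points passed the threshold. C1qa lies at 0.37 and 0.45, Aif1 at 2.01 and 1.31, and the open points are Cd163 with cobalt and Cd68 with nickel.

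Cobalt and nickel were then compared with each other at 3 months. In limma 0 of the 10 genes passed, while 2.2% of all probe sets did. An unadjusted p below 0.05 was found for 3 of the 10 and for 2032 of the 22954 probe sets. The differences nearest the threshold were those of Aif1, 0.70 with a 95% interval of 0.16 to 1.25, and Adgre1, 0.69 with an interval of 0.14 to 1.24 (limma adjusted p = 0.27 and 0.29). Cd68 was 0.58 higher with cobalt, with an interval of 0.01 to 1.15. For C1qa, C1qc and Cd163 the value was below 0, at -0.08, -0.10 and -0.16. The interval of C1qb, -0.28 to 0.69, and that of Fcer1g, -0.18 to 0.79, are wide, so the metals are not shown to act alike on them.

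At 1 month, copper and nickel muscle each had 1 gene called. Siglec1 rose with copper, from 6.01, 5.73 and 6.42 in the tantalum arrays to 7.24, 6.30 and 7.50, and the second copper array lay within the tantalum range. The difference was 0.96 ± 0.20 (limma adjusted p = 0.010), in a comparison with 0.235% of all probe sets called higher. It was lost without copper replicate 1 (adjusted p = 0.34) or 3 (0.24) and without tantalum replicate 1 (0.069) or 2 (0.20). Fcer1g rose with nickel, from 7.82, 7.52 and 8.96 to 8.35, 9.19 and 9.46, with overlap. Its difference of 0.90 ± 0.24 was just past the threshold (limma adjusted p = 0.049), where 0.405% of all probe sets were called higher. That call was lost without nickel replicate 2 (adjusted p = 0.23) or 3 (0.46) and without tantalum replicate 1 (0.27) or 2 (0.48). All 10 differences were above 0 in both comparisons, with medians of 0.49 for copper and 0.65 for nickel, against 0.00 over all probe sets for each. At an unadjusted limma p below 0.05 were 5 and 7 of them, against 1746 and 2445 of the 22954 probe sets. C1qb (0.86 ± 0.24, limma adjusted p = 0.069) and Cd163 (0.70 ± 0.21, 0.085) were the next nickel genes in order.

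Tantalum replicate 3 of 1 month stood high in the macrophage genes. It read 8.67 for Cd68 against 7.51 and 7.31, 8.44 for Cd163 against 7.26 and 7.42, 6.80 for Aif1 against 5.69 and 5.48, and 7.63 for Csf1r against 6.60 and 6.63. Without it, 5 genes passed with nickel and 2 with copper. With the mean of the other metals of that month as the reference, the nickel counts were also 5 (C1qb, Adgre1, Aif1, Fcer1g and Cd163, differences 0.66 to 1.13), and copper had 2 (Fcer1g at 0.87 ± 0.18 and Siglec1 at 0.89 ± 0.15).

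Aluminum muscle at 1 month had all 10 differences below 0, with a median of -0.40. Tantalum replicate 3 of 1 month, described above as high, enters each of them. The other tantalum arrays both lay above the aluminum mean for C1qb, Fcer1g, Cd68 and Csf1r. For C1qc both lay below it, and for the remaining genes the aluminum mean fell between them. Fcer1g was the nearest to the threshold, at 7.24 ± 0.18 against 8.10 ± 0.76 (SD, n = 3 each). It differed by -0.86 ± 0.24, with a limma adjusted p of 0.17. None of the 10 passed, and 0.0261% of all probe sets did. Against the mean of the other metals 2 passed, Fcer1g at -0.88 ± 0.18 and C1qb at -0.77 ± 0.18 (limma adjusted p = 0.020 and 0.040). At 3 months the same reference put C1qb, Aif1, Fcer1g and Cd68 lower with aluminum (differences -0.66 to -0.98) and C1qb (-1.14) and Csf1r (-0.79) lower with iron, whereas against tantalum 0 passed for either. The references of 3 months hold the cobalt and nickel arrays, and that of 1 month holds the copper and nickel arrays, in which the genes stood higher. The shares of all probe sets called against these references are not given here.

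For the other metals 0 of the 10 genes passed at 1 month. The shares of all probe sets called were 0.00871% with cobalt, 0.244% with depleted uranium, 0.131% with iron, 3.02% with lead and 0.00871% with tungsten. Lead had many changed probe sets, yet among the 10 genes its smallest adjusted p was that of Cd68 (-0.65 ± 0.29, limma adjusted p = 0.19). At 3 months 0 passed with aluminum, copper, depleted uranium, iron, lead or tungsten. There 0.118%, 0.0436%, 0.00436%, 0.00436%, 0.0174% and 0% of all probe sets were called. The Cd68 values of copper (-0.78 ± 0.29, adjusted p = 0.31) and the other metals rest on the tantalum arrays described above.

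At 6 months 0 of the 10 genes and 0% of all probe sets passed, whichever of the 8 metals was compared. At most 1 of the 10 had an unadjusted p below 0.05, against 1129 to 2115 of the 22954 probe sets. Cobalt muscle read 7.32 ± 0.26 for Fcer1g against 7.59 ± 0.26, and nickel muscle 7.59 ± 0.32 (SD, n = 3 each). At 12 months 0 passed either, with 0% called for aluminum, iron, lead and tungsten, 0.00436% for cobalt, 0.00436% for copper and 0.0915% for depleted uranium. Aluminum at 12 months held single arrays that stood apart. Adgre1 read 4.44, 4.97 and 6.76, the last of them above every array outside cobalt at 3 months (0.61 ± 0.28 over tantalum, limma adjusted p = 0.50). In replicate 1 of that group C1qb (5.92) and Csf1r (5.77) were at their lowest of all arrays.

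**Figure D3:**
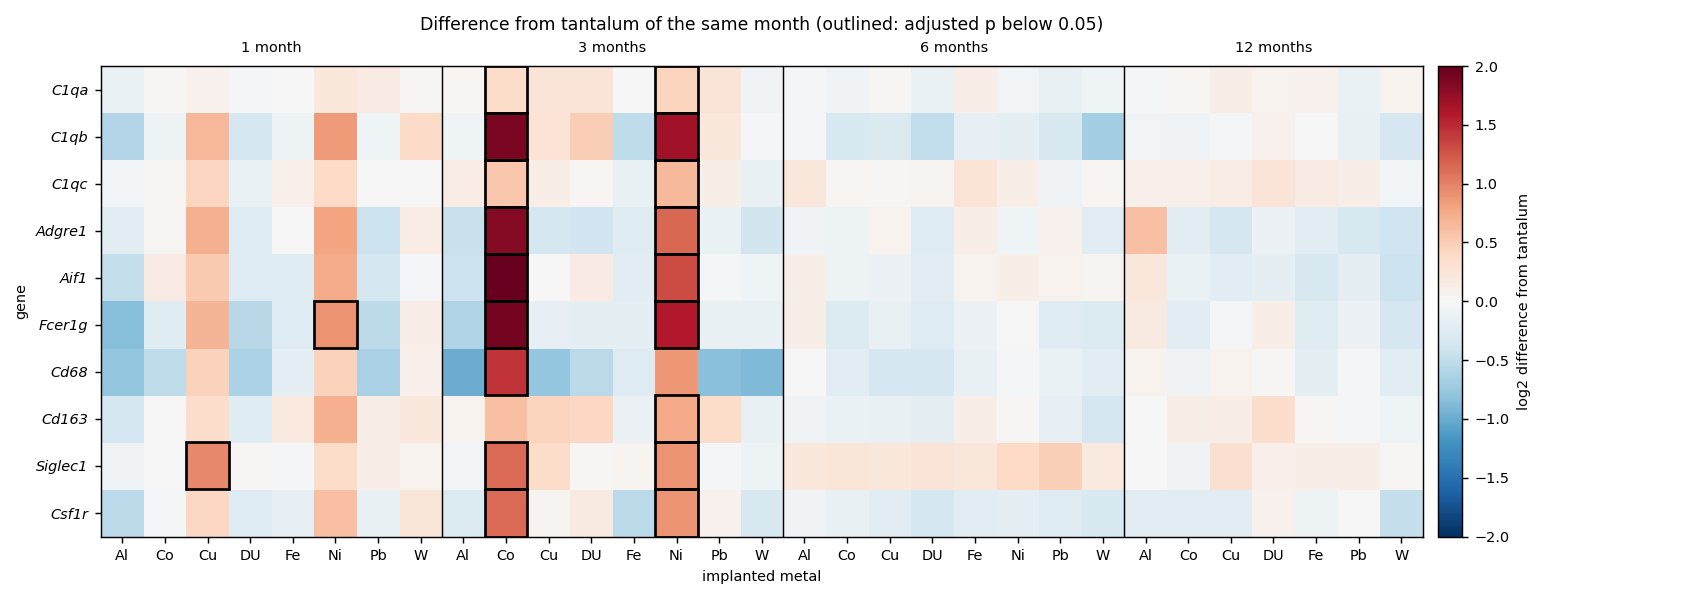
Difference from tantalum of the same month (log2, colour) for each gene in rows and each metal and month in columns; outlined cells passed the threshold. The outlines fill the cobalt and nickel columns of 3 months, with 9 each, and otherwise mark Siglec1 with copper and Fcer1g with nickel at 1 month.

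Whether a difference changed between months was tested with a moderated F statistic for each metal. With cobalt 7 genes changed between months, and these were Fcer1g (limma adjusted p = 1.9e-07), C1qb (7.7e-07), Aif1 (1.6e-05), Adgre1 (6.4e-05), Cd68 (0.0012), Siglec1 (0.0046) and Csf1r (0.012). Over all probe sets 4.18% did. The course was a single peak. Fcer1g differed from tantalum by -0.24 ± 0.24 at 1 month, 1.91 ± 0.24 at 3, -0.28 ± 0.24 at 6 and -0.23 ± 0.24 at 12. C1qb gave -0.11, 1.88, -0.30 and -0.08 at those months, each ± 0.24. With nickel, which has 3 months of data, C1qb (limma adjusted p = 0.0015) and Fcer1g (0.011) changed between months, against 1.22% of all probe sets. C1qb differed by 0.86, 1.68 and -0.19, and Fcer1g by 0.90, 1.60 and -0.01. For the other metals 0 of the 10 passed, with shares over all probe sets of 0.0131% for aluminum, 0% for copper, 0.0174% for depleted uranium, 0% for iron, 0.152% for lead and 0% for tungsten. Copper had 5 of the 10 at an unadjusted p below 0.05, against 1608 of the 22954 probe sets.

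**Figure D4:**
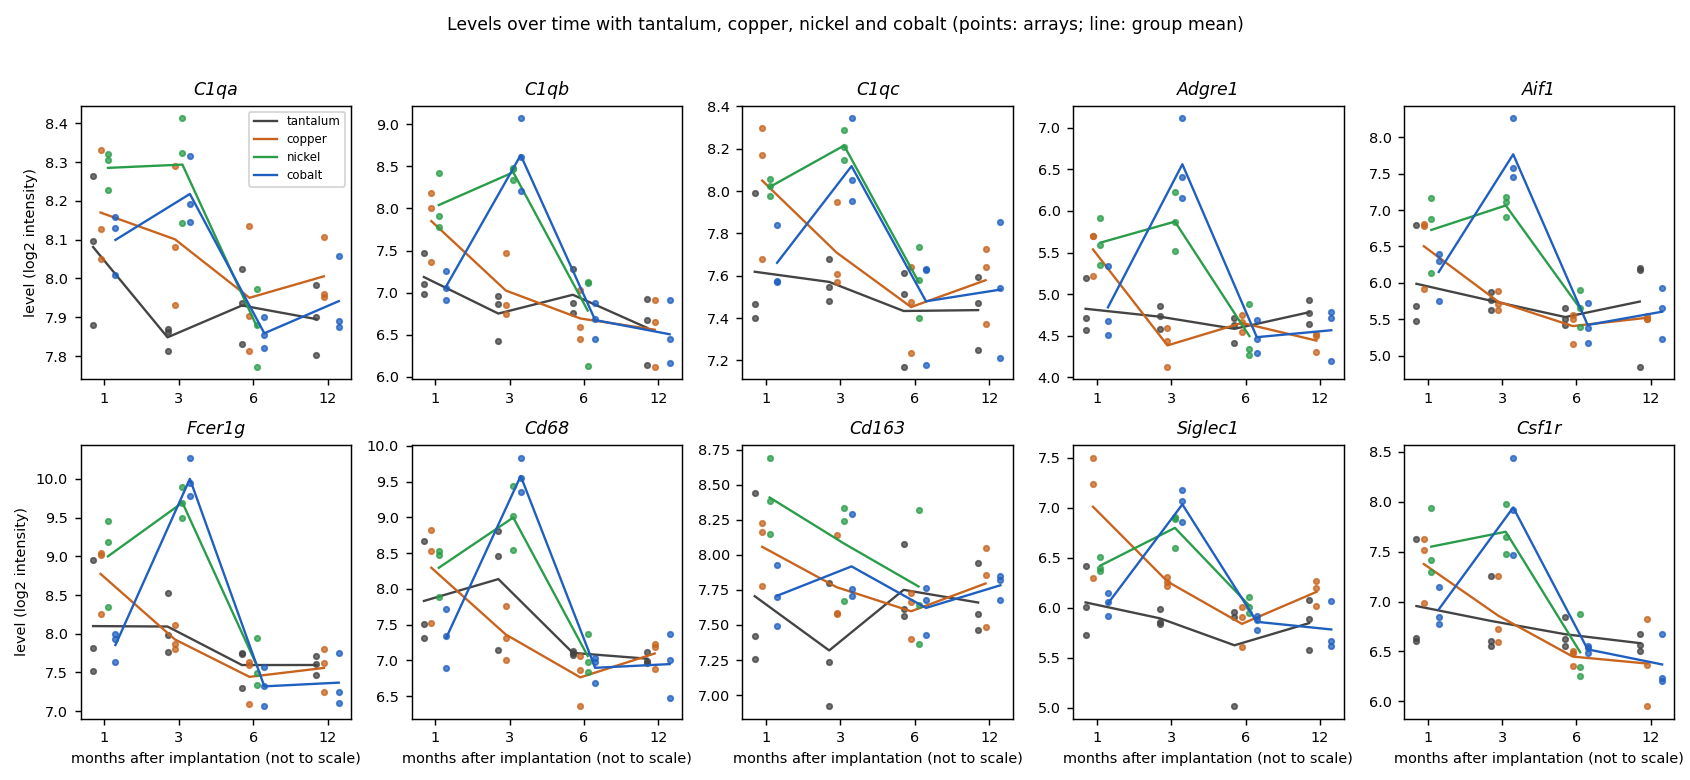
Level (log2 intensity) of each gene at 1, 3, 6 and 12 months with tantalum (grey), copper (orange), nickel (green) and cobalt (blue); points are arrays and lines join group means. Cobalt rises and falls around 3 months, nickel is high at 1 and 3 months, and all lines lie close together at 6 months.

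As a mean over months, nickel had 7 of the 10 genes higher, where 1.84% of all probe sets were. They were Fcer1g (0.83 ± 0.14, limma adjusted p = 3.4e-05), C1qb (0.78 ± 0.14), Aif1 (0.72 ± 0.16), Adgre1 (0.62 ± 0.16), Siglec1 (0.56 ± 0.11), Cd163 (0.50 ± 0.12) and C1qc (0.39 ± 0.10), all with differences above 0 at 1 and 3 months, although at 1 month Fcer1g alone passed. Csf1r (0.44 ± 0.14, adjusted p = 0.076), C1qa (0.20 ± 0.07, 0.082) and Cd68 (0.43 ± 0.17, 0.17) did not pass. For the means, a replicate number of a metal was left out in all its months at once. Without tantalum replicate 1 or 2 the count was 4, with C1qc, Adgre1 and Cd163 lost (adjusted p from 0.052 to 0.11). C1qc was also lost without nickel replicate 1 or 2, and Adgre1 and Cd163 without nickel replicate 3. Among all alternative settings and refits that kept Adgre1, its call was lost in 4 and held in 5. Copper had Siglec1 (0.46 ± 0.10, limma adjusted p = 0.045), where 0.0218% of all probe sets were higher, and that call was lost without copper replicate 1 (0.30) or any 1 of the tantalum replicates (0.069 to 0.14). Cobalt had 0, where 1.15% of all probe sets passed, and its differences at 1, 6 and 12 months ran from -0.52 to 0.23. With the replicate number as a block within month, which pairs the cobalt and tantalum arrays of 6 and 12 months, 1 gene passed for the cobalt mean. The remaining metals had 0 as well, against 0.187% for aluminum, 0.0174% for depleted uranium, 0% for iron, 0.139% for lead and 0% for tungsten.

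The tantalum control itself showed no call over time among the 10 genes. Compared with 1 month, 0 passed at 3, 6 or 12 months, while 0.222%, 4.76% and 7.85% of all probe sets did. Cd68 was the nearest, at 7.83 ± 0.74 at 1 month and 7.02 ± 0.08 at 12 (SD, n = 3 each), a difference of -0.81 ± 0.29 (limma adjusted p = 0.068). All 10 differences of 12 months from 1 month were below 0, with a median of -0.23. Tantalum replicate 3 of 1 month, described above as high, enters each of them. Its companion arrays of 1 month all lay below the 12 month mean for Adgre1, Aif1 and Cd163. For the other genes at least 1 of those arrays lay above that mean. Age and time with the implant cannot be told apart in the tantalum control.

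Ordered by group mean, cobalt at 3 months was the highest of the 35 groups for C1qb, Adgre1, Aif1, Fcer1g, Cd68, Siglec1 and Csf1r. Nickel at 3 months was highest for C1qa and C1qc, and nickel at 1 month for Cd163, at 8.41 ± 0.27 (SD, n = 3). Aif1 was the gene whose top group, at 7.77 ± 0.43, did not overlap the next, nickel at 3 months at 7.06 ± 0.15. For Siglec1 the second group was copper at 1 month (7.01 ± 0.63), which overlapped its neighbours. The lowest group means were scattered: tungsten at 12 months for C1qb and Csf1r, aluminum at 3 months for Adgre1 and at 1 month for Fcer1g, and copper at 6 months for Cd68.

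The genes differed in how closely their group means followed each other. Over the 35 groups, Pearson's r was highest for C1qb with Csf1r (0.97, and 0.95 over the 33 groups without cobalt and nickel at 3 months). It was lowest for Cd68 with Cd163 (0.40 and 0.29). These values describe means that share an array design and a normalization, and no test goes with them. Outside the list, RT1-Da, an MHC class II chain, was the nearest gene to C1qb (r = 0.95 and 0.93), Aif1 (0.97 and 0.92) and Csf1r (0.96 and 0.94). Fcer1g was nearest to the Fc receptor genes Fcgr2al1 (0.97 and 0.92) and Fcgr2a (0.96 and 0.90), and Cd68 to Ifitm1 (0.98 and 0.95) and Cd44 (0.96 and 0.91). Adgre1 was nearest to Skap2 (0.92 and 0.80) and Mpeg1 (0.91 and 0.78), and C1qc to Clec4a1 (0.88 and 0.80) and Mnda (0.88 and 0.82). Siglec1 was nearest to the interferon-induced GTPase gene Mx1 (0.89 and 0.78) and to Apoe (0.87 and 0.76). Cd163 was nearest to P2ry12 (0.85 and 0.84) and the mannose receptor gene Mrc1 (0.84 and 0.85). C1qa had lower values, with Irak4 (0.85 and 0.80) and the complement gene C4b (0.85 and 0.82) at the top. Over the 33 groups another gene came first for C1qa, C1qc, Adgre1, Fcer1g, Cd163 and Siglec1. For Siglec1 it was Cdkn1c (0.47 over 35 groups and 0.81 over 33) and for C1qa Ccdc80 (0.79 and 0.83).

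Other genes of the classical pathway rose beside the C1q chains. Of 12 measured complement cascade genes, 4 were higher with cobalt at 3 months and 4 with nickel, and 0 were lower with either, with medians of 0.42 and 0.37. C1r and C1s encode the proteases that C1q activates. C1s was 1.67 ± 0.24 and 1.48 ± 0.24 higher (limma adjusted p = 6.4e-08 and 7.4e-06), and C1r 0.80 ± 0.17 and 0.82 ± 0.17 (3.7e-04 and 6.9e-04). C6, of the membrane attack complex, was 1.10 ± 0.26 and 0.96 ± 0.26 higher. C3, the central component, rose by 2.13 ± 0.23 with cobalt, from 5.30 to 7.43, and was higher with cobalt than with nickel by 1.58 ± 0.23 (limma adjusted p = 3.3e-07). C4b rose with nickel, by 1.03 ± 0.25 (limma adjusted p = 0.0065). Of 20 complement regulators and receptors, 7 were higher with cobalt and 2 with nickel. The complement receptor gene Cr2, known from B cells and follicular dendritic cells, was called with cobalt at a level of 6.82, against 3.92 with tantalum. Lair1, an inhibitory receptor that binds C1q and collagen, was called at 5.11 against 3.88. Both tantalum levels lie at the control probe sets, so the sizes of these differences are not exact. The integrin chain gene Itgb2 was 1.03 ± 0.23 higher with cobalt, and Lrp1, an uptake receptor, was called with both metals (0.53 ± 0.14 and 0.78 ± 0.14).

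Partners of Fcer1g rose with both metals. Of 16 Fc receptor and ITAM signalling genes, 12 were higher with cobalt and 9 with nickel, and 0 lower, with medians of 1.27 and 0.77. The receptor gene Fcgr3a was 2.13 ± 0.20 and 1.45 ± 0.20 higher (limma adjusted p = 1.8e-14 and 9.4e-08), and the kinase gene Syk 1.94 ± 0.21 and 1.02 ± 0.21 (4.9e-12 and 5.8e-04). The adaptor gene Blnk and the kinase gene Lyn also rose with both metals (2.11 ± 0.27 and 1.17 ± 0.27 for Blnk, 1.46 ± 0.19 and 0.87 ± 0.19 for Lyn). Tested directly, 7 of the 16 were higher with cobalt than with nickel, among them Lcp2 (1.18 ± 0.23), Syk (0.93 ± 0.21), Vav1 (0.84 ± 0.22) and Plcg2 (0.71 ± 0.18). Fcer1a and Ms4a2, which join Fcer1g in the IgE receptor of mast cells, were within 1 unit of the control median in all 3 groups.

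Among ligands, receptors and lineage factors around Csf1r, 2 of 12 were higher with each metal. Csf2rb, a chain of the GM-CSF receptor, was 1.59 ± 0.20 and 1.11 ± 0.20 higher. Irf8, a myeloid transcription factor, was the other with cobalt (0.38 ± 0.11), and Runx1 the other with nickel (0.57 ± 0.14). Of 10 genes of resident macrophages, 4 were higher with cobalt and 2 with nickel. Mrc1 (0.87 ± 0.24 and 1.00 ± 0.24) and Clec10a (0.84 ± 0.19 and 0.64 ± 0.19) were called with both, and Folr2 (1.12 ± 0.28) and Mertk (0.65 ± 0.17) with cobalt. Of 16 phagocyte and lysosome genes, 5 and 4 were higher, with Laptm5 at 2.46 ± 0.22 and 0.97 ± 0.22 and the cathepsin gene Ctss at 1.37 ± 0.23 and 1.02 ± 0.23. Of 14 monocyte and myeloid genes, 6 and 4 were higher. Ptprc, the pan-leukocyte gene, differed by 3.36 ± 0.33 and 1.57 ± 0.33, Plac8 by 2.92 ± 0.22 and 1.43 ± 0.22, and Mpeg1, of phagocytes, by 2.53 ± 0.30 and 1.80 ± 0.30.

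Cd163 and Siglec1 each have functional companions that were examined. For Cd163, 4 of 11 genes of hemoglobin and heme handling were higher with cobalt and 3 with nickel. Hmox1, which breaks down heme, was 3.82 ± 0.31 and 3.30 ± 0.31 higher, the iron exporter gene Slc40a1 0.89 ± 0.21 and 1.51 ± 0.21, and Slc11a1 1.26 ± 0.28 and 1.17 ± 0.28. For Siglec1, 4 of 11 interferon-induced genes were higher with cobalt and 6 with nickel at 3 months. Gbp2 was 2.00 ± 0.14 and 0.84 ± 0.14 higher, Ifi47 2.48 ± 0.20 and 1.12 ± 0.20, and Mx1 1.60 ± 0.26 and 1.15 ± 0.26. With copper at 1 month, where Siglec1 was called, 4 of the 11 were higher, Gbp2 (0.78 ± 0.14), Rsad2 (1.11 ± 0.21), Mx2 (1.05 ± 0.24) and Mx1 (1.13 ± 0.26), with limma adjusted p-values from 0.0029 to 0.025.

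**Figure D5:**
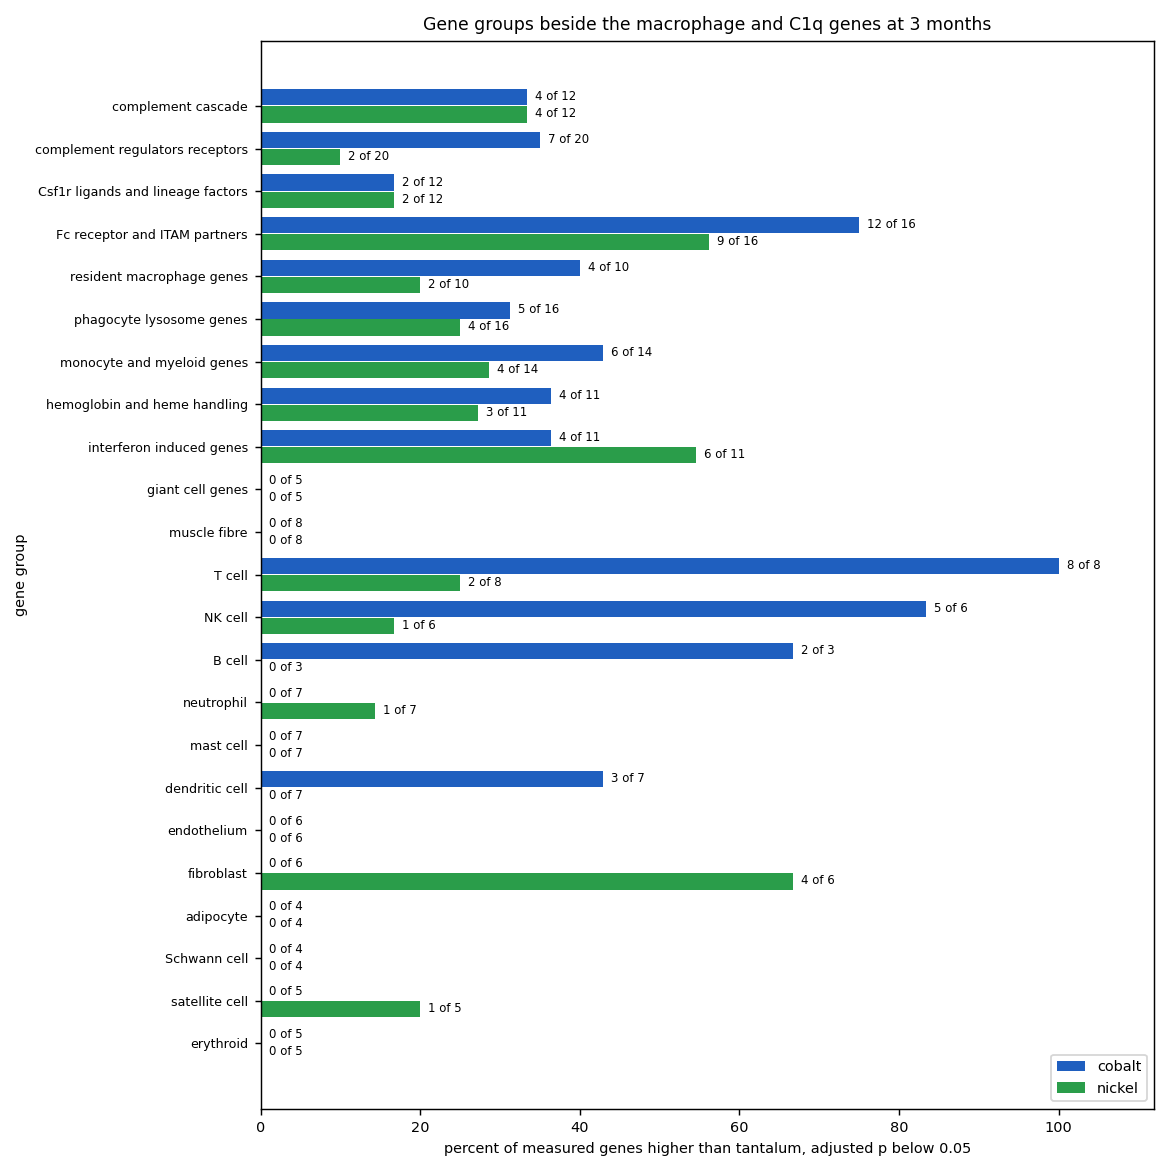
Percent of the measured genes of each group that were higher than tantalum at 3 months, for cobalt (blue) and nickel (green), with the counts beside the bars. T cell genes reach 8 of 8 with cobalt and 2 of 8 with nickel, while fibroblast genes reach 0 of 6 and 4 of 6.

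Markers of other cell types moved with the same arrays. With cobalt at 3 months 8 of 8 T cell, 5 of 6 natural killer (NK) cell, 2 of 3 B cell and 3 of 7 dendritic cell genes were higher, and with nickel 2, 1, 0 and 0. The mean level of the T cell list per array ran from 5.57 to 5.77 with tantalum, from 7.08 to 7.24 with cobalt and from 5.85 to 6.12 with nickel. For the NK list these ranges were 4.77 to 4.87, 6.12 to 6.54 and 5.09 to 5.32, and for the B cell list 5.85 to 6.01, 6.89 to 7.32 and 6.02 to 6.22. In tantalum muscle Cd3e, Cd3g and Cd2 of T cells, Klrd1, Klrk1 and Gzma of NK cells and Cd79b of B cells were within 1 unit of the control median. Fibroblast genes were higher in 4 of 6 cases with nickel (Lum, Col3a1, Col1a1 and Col1a2) and 0 of 6 with cobalt, with list means of 9.58 to 9.76 with tantalum, 9.68 to 10.35 with cobalt and 10.46 to 10.59 with nickel. Tested directly at 3 months, 1 of the 6 fibroblast genes was lower with cobalt than with nickel, and 6 of the 8 T cell genes were higher. The part of these cell types in the changes of the macrophage genes was not tested.

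Other lists moved little. Neutrophil genes were called in 0 of 7 cases with cobalt and 1 of 7 with nickel (S100a9, 0.75 ± 0.21), and S100a8, Ngp and Camp were within 1 unit of the control median in all 3 groups. Mast cell genes were called in 0 of 7 cases with either metal. Giant cell genes were called in 0 of 5, with medians of -0.09 and -0.18. Dcstamp and Ocstamp, whose products serve the fusion of macrophages, were listed but not measured, so the count does not cover them. Calcr, of the measured genes, was within 1 unit of the control median in all 3 groups. Endothelial (0 of 6), adipocyte (0 of 4), Schwann cell (0 of 4) and erythroid (0 of 5) genes were called with neither metal, and of the 5 satellite cell genes Myf5 was called with nickel (0.96 ± 0.25).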

How the data were processed

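Clariom S Rat arrays measured RNA pooled from gastrocnemius. Values are log2 intensities as deposited, 1 for each probe set on each array, made by the authors with RMA (background correction, quantile normalization, summarisation), the package oligo and R 4.0.1, per the submitters' processing notes. Whether 1 run covered all arrays is not given in the sources used here. Of 22977 probe sets, 23 controls were left out. Groups came from sample titles. A model with 1 mean per group was fitted in limma 3.58.1 (R 4.3.3, lmFit and eBayes, 70 residual degrees of freedom) and tested on simulated data. No coordinates of probe sets are given. The genes and companion lists were chosen with earlier results of these data known. All 10 genes are named throughout; each companion list gives up to 4 genes with the smallest adjusted p, and likeness the 5 nearest genes per member, of which the text names a part. Same-numbered arrays deviated together (every correlation above 0.1) in 13 of 32 comparisons, none of them at 1 or 3 months, and the main model has no block for it. The number of arrays limits the precision. Alternatives were a replicate block, a filter on the dimmest 30%, a second quantile normalization, a trended prior, fewer arrays in the fit, other metals as reference, wider adjustment and leaving out arrays.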

Additional observations from a re-analysis of the deposited data

Results flagged for a closer look

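The difference from tantalum of 9 gene and metal pairs changed between months by the moderated F statistic of limma. With cobalt these were Fcer1g (adjusted p = 1.875e-07), C1qb (7.65e-07), Aif1 (1.58e-05), Adgre1 (6.446e-05), Cd68 (0.001227), Siglec1 (0.004552) and Csf1r (0.01202), each highest at 3 months. With nickel they were C1qb (0.001539) and Fcer1g (0.01074), higher at 1 and 3 months than at 6. Groups of 3 arrays are too small for the outlier criterion, so single arrays such as the third tantalum array of 1 month are given as values only.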

How the results depend on the processing

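Of 361 alternative counts of the 10 genes, 33 differed from the main count by over 1.5 times. Most comparisons had a main count of 0, and a count that stayed at 0 was scored as unchanged. The 33 of 361 therefore understates how often counts above 0 moved. Direction was followed only for differences that passed, and for Cd163 with cobalt and Cd68 with nickel at 3 months. Of these, 0 changed direction, and the other differences were not followed. With the replicate number as a block within month, nickel at 1 month had 2 genes (main 1) and the cobalt mean 1 (main 0); the block moved no other count this far. A second quantile normalization left 0 for the copper mean (main 1). Nickel at 1 month fell to 0 with a trended, robust prior, with arrays of the same month only, with the 6 arrays compared and with adjustment over all 31 comparisons. Copper at 1 month fell to 0 with the same-month arrays and with the 6 arrays. That wider adjustment left 5 for nickel at 3 months (main 9). Against the other metals of the month the counts were 2 for aluminum, 2 for copper and 5 for nickel at 1 month, and 4 for aluminum and 2 for iron at 3 months. Leaving out single arrays gave 7 to 9 for cobalt and 4 to 10 for nickel at 3 months, and 0 for cobalt against nickel. At 1 month it gave 0 to 2 for copper and 0 to 5 for nickel. Leaving out 1 replicate number of a metal in all its months gave 4 to 7 for the nickel mean. For the copper mean it gave 0 to 1. The shares of all probe sets called under these alternatives are not given here. C1qb, Aif1, Fcer1g and Siglec1 passed under all 14 alternatives at 3 months with both metals, and Adgre1 with cobalt under all 13 that kept it. Where calls were lost, the cause was not tested. With 3 pools per group, Adgre1 near background and tantalum arrays that differ among themselves limit what can be said.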
